A study of Drosophila melanogaster with 3 samples.

Results

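Cells of the early pupal intestine were chosen by their counts of 2 noncoding RNAs, *roX1* and *roX2*. Of 965 cells with more than 10000 unique molecular identifiers (UMIs, each standing for 1 captured RNA molecule), 104 held at least 1 UMI of both RNAs and are called roX-present cells. Another 782 held no UMI of either and are called no-roX cells, and the remaining 79 held UMIs of only 1 of the 2 RNAs and entered neither set. The same filter kept 2803 cells in the whole series, which has 1 single-cell library per stage (red-eye pupa, immature adult on day 1, mature adult on days 7 to 8). The early pupa library came from pooled *Drosophila melanogaster* intestines, taken at ZT0 (lights on) without foregut and hindgut and dissociated with elastase. Its labels give the genotype as CantonS with a per01 background and the sex as female, while the study's methods allow for both sexes in work that spans larva to adult. Because 104 cells of this library held both roX RNAs, known as RNAs of males in this species, it is called the library labelled female. The sex of the cells was not tested. Both sets of cells come from this 1 library, so there are no replicates and no test. The intervals below are exact 95% intervals for counting error, and nothing here measures the spread between animals. The number of pupae behind either set is not given in the sources used here.

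In fruit flies, sex is set by the dose of the X chromosome. The X dose of females switches on *Sxl*, an RNA-binding protein, which sets off female splicing of *tra* and blocks production of the MSL2 protein. In males MSL2 is made and assembles with MSL1, MSL3, the acetyltransferase MOF, the helicase MLE and the RNAs roX1 and roX2. This complex coats the single male X and raises its transcription, which evens out X-linked output between the sexes. In somatic tissue *roX1* and *roX2* are therefore known as RNAs of male cells.

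In roX-present cells *roX1* had 1, 20 and 97 UMIs per cell as the lowest, median and highest value, and *roX2* had 1, 9 and 55. These values set the division and are given as a description only. Counting both RNAs together, 782 cells had 0 UMIs, 59 had 1, 20 had 2 to 4, and 104 had 5 or more. Just inside the boundary stood 2 cells with 1 UMI of each RNA, and just outside it 59 cells with a single roX UMI and 20 cells with 2 or more UMIs of only 1 RNA. Of the 104 roX-present cells, 99 had 5 or more roX UMIs together, and of the 79 cells with only 1 of the RNAs, 5 did. Summed over the roX-present cells, *roX1* stood at 992 CPM and *roX2* at 498 CPM (UMIs of the gene per 1000000 UMIs of all genes). Barcodes with at most 1000 UMIs carried 98.2 CPM (73.3 to 129) of *roX1* and 24.5 CPM (13.1 to 42.0) of *roX2*. Free RNA may be a larger part of such barcodes, but they may also hold cells, so they do not measure free RNA alone. The part of free RNA in the cells with a single roX UMI was not tested. *roX1* lies at chrX:3857230-3862697 and *roX2* at chrX:11579065-11580432 (BDGP6).

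**Figure D1:**
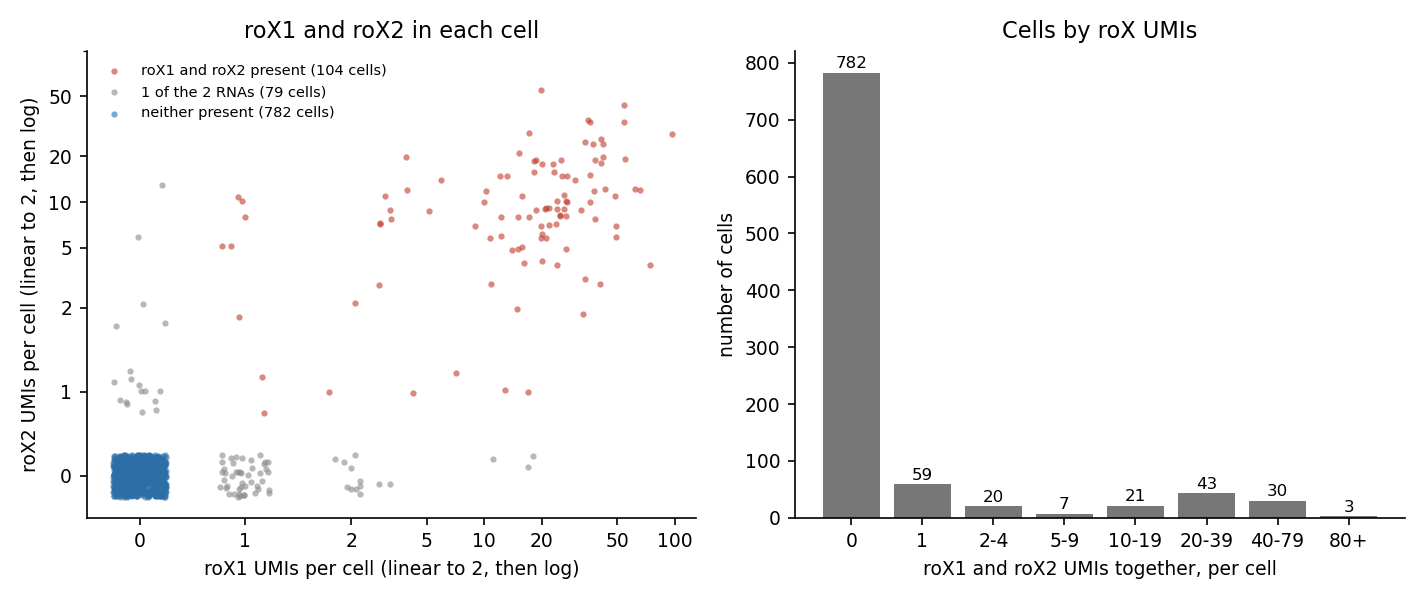
Left, roX1 UMIs (x axis) against roX2 UMIs (y axis) in each of the 965 cells, on axes that are linear to 2 and logarithmic above, with a small random shift so that points do not hide each other. Right, number of cells (y axis) by the UMIs of both RNAs together (x axis): 782 cells had 0, 59 had 1, 20 had 2 to 4 and 104 had 5 or more.

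Depth did not set the 2 groups far apart. The median was 16898 UMIs and 2501.5 genes in roX-present cells, against 17861 UMIs and 2442.5 genes in no-roX cells. Summed over cells this gave 2412120 and 18738916 UMIs. Mitochondrial genes took a median of 7.10% of UMIs in roX-present cells and 7.41% in no-roX cells. Of the 3816 barcodes, 4 also occurred in the immature adult library and 9 in the mature adult library, and 2 roX-present and 3 no-roX cells were among them. Leaving these out changed no direction given below for a value past 2-fold.

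Outside the roX RNAs, a large difference that held in each cluster of cells lay in the precursor of ribosomal RNA. The annotation lists copies of this precursor on an rDNA contig that belongs to no chromosome arm. In the fly, the repeated rDNA genes are carried by both the X and the Y. In roX-present cells the copy pre-rRNA:CR45847 (contig position 66807 to 74924) had 1159 UMIs and the copy pre-rRNA:CR45845 (42623 to 49485) had 212. In no-roX cells the order was turned round, with 110 UMIs of CR45847 and 15400 of CR45845. CR45847 therefore made up 84.5% (82.5 to 86.4) of the UMIs of the pair in roX-present cells, against 0.709% (0.583 to 0.854) in no-roX cells. In esg cells, defined below by the progenitor gene *escargot*, CR45847 had 792 UMIs with roX and 24 without, and CR45845 had 161 and 8536. Over all cells, CR45847 stood at 480.5 CPM in roX-present and 5.87 CPM in no-roX cells, a log2 ratio of 6.35 (6.07 to 6.65), and CR45845 at 87.9 and 822 CPM, a log2 ratio of -3.23 (-3.43 to -3.03).

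Cell by cell the same split held. Of 85 roX-present cells with a UMI of either copy, 78 had more of CR45847, whereas 0 of 617 no-roX cells did. A single roX-present cell held 127 of the 212 CR45845 UMIs. Among roX-present cells with 5 or more roX UMIs CR45847 made up 96.0% (94.8 to 97.1) of the pair, and among the 5 cells with 2 to 4 roX UMIs it had 0 UMIs against 164 of CR45845. The 59 cells with 1 roX UMI had 9 UMIs of CR45847 and 1536 of CR45845, or 0.583% (0.267 to 1.10), which is close to the share in no-roX cells. The direction was the same in each of the 9 cell clusters described below. In the progenitor-like cluster the log2 ratio was 7.80 (7.14 to 8.54) for CR45847 and -3.02 (-3.27 to -2.77) for CR45845. Copies of rDNA are near-identical, and reads that fit both may be lost or split by the authors' counting, so the level of each copy is uncertain. Which chromosome either copy stands for was not tested.

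**Figure D2:**
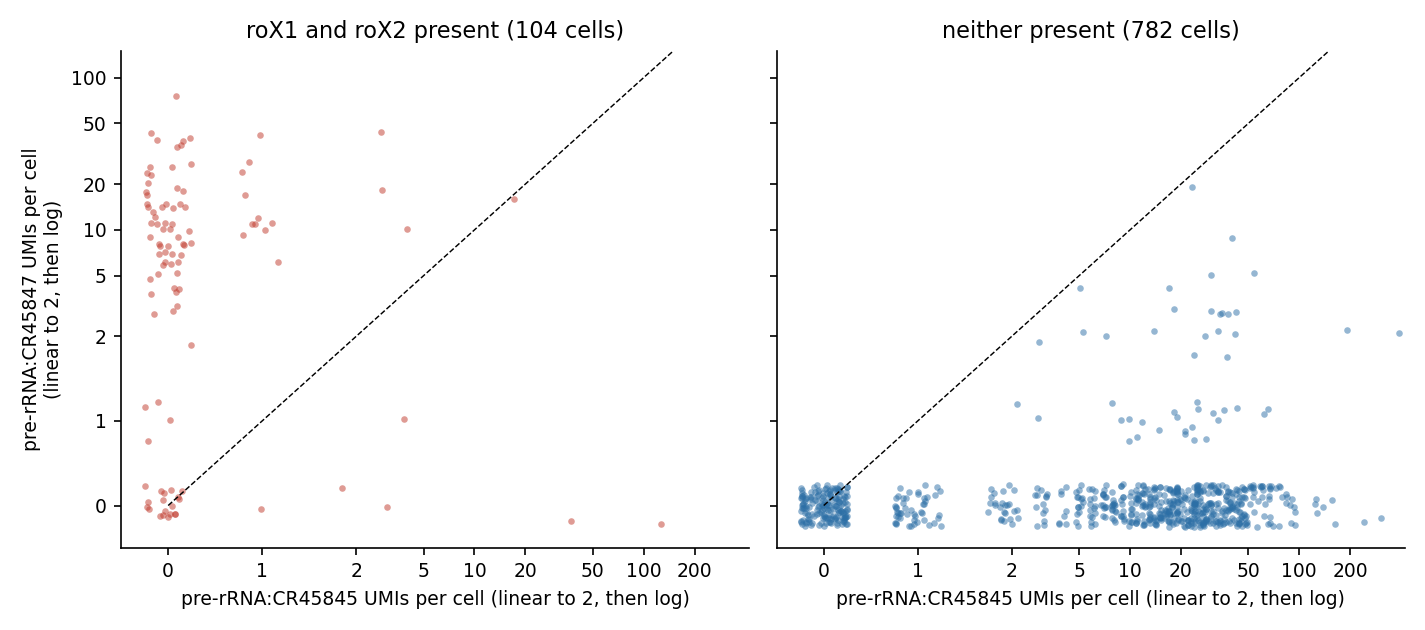
UMIs of pre-rRNA:CR45847 (y axis) against pre-rRNA:CR45845 (x axis) per cell, in the 104 roX-present cells (left) and the 782 no-roX cells (right). Axes are linear to 2 and logarithmic above, points carry a small random shift, and the dashed line marks equal UMIs: 78 roX-present cells and 0 no-roX cells had more CR45847.

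In the immature adult, 3 of 713 cells held both roX RNAs (0.421%, 0.0869 to 1.22). They had a median of 57 *roX1* UMIs and 11 *roX2* UMIs, yet 0 UMIs of CR45847 and 59 of CR45845. The 701 immature adult cells without roX had 96 UMIs of CR45847 and 17451 of CR45845. In the mature adult, 0 of 1125 cells held both roX RNAs, which allows a share of up to 0.267%.

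To compare single genes, UMIs were summed over the cells of each set. A gene was read where both sets together held at least 100 UMIs, and a log2 ratio above 1 or below -1 was called past 2-fold. Of 6702 genes read in all cells, 439 (6.55%) were past 2-fold higher in roX-present cells and 423 (6.31%) past 2-fold lower. Because the sets differ in their cell types, the comparison was repeated in cells with at least 2 UMIs of *esg* (*escargot*), the transcription factor that marks intestinal progenitors. These esg cells numbered 50 with roX and 290 without, and held 793045 and 4930362 UMIs. They were not all of 1 cell type. Counting also cells with only 1 of the roX RNAs, 292 esg cells fell in the progenitor-like and 67 in the enteroendocrine-like cluster described below. Of 3957 genes read there, 109 (2.75%) were past 2-fold higher and 131 (3.31%) past 2-fold lower.

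Genes of the sex determination pathway were mostly near equal, with *Sxl* the lowest of those read over all cells. *Sxl* (chrX:7074550-7098053), the female switch gene, had 220 UMIs in roX-present cells and 2930 in no-roX cells, or 91.2 and 156 CPM, a log2 ratio of -0.78 (-0.98 to -0.58). In esg cells it had 107 UMIs with roX and 1524 without, or 135 and 309 CPM, a log2 ratio of -1.20 (-1.49 to -0.91). Thus *Sxl* RNA was 2.29-fold lower in roX-present esg cells but was not missing from them. Tags from the 3′ end do not separate the female from the male splice form of *Sxl*. Barcodes with at most 1000 UMIs held 130 CPM (101 to 165) of *Sxl*, and how much of the 91.2 CPM was free RNA was not tested. By cluster, the log2 ratio was -1.22 (-1.57 to -0.89) in progenitor-like cells and -0.93 (-1.43 to -0.47) in enteroendocrine-like cells. It was -0.05 (-0.72 to 0.56) in enterocyte-like cells and -0.04 (-0.84 to 0.70) in visceral muscle-like cells, where the intervals include 0.

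The gene *snf*, which encodes a splicing factor that takes part in *Sxl* autoregulation, had 28 UMIs in roX-present and 376 in no-roX esg cells, a log2 ratio of -1.11 (-1.72 to -0.56). Over all cells its ratio was -0.37 (-0.70 to -0.06). *Sxl* and *snf* were the 2 of 12 sex determination genes read in esg cells that were past 2-fold lower, beside 3.31% of all genes read there, and 0 were past 2-fold higher. Both are X-linked. The X-dose signal genes *sc*, *run*, *sisA* and *upd1* did not reach 100 UMIs, and *sc* had 4 UMIs in roX-present and 85 in no-roX cells. Over all cells 0 of 16 genes of the list were past 2-fold in either direction, and their median log2 ratio was 0.25, beside 0.07 over all genes read.

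*tra* (*transformer*), the splicing regulator downstream of *Sxl*, had 44 and 492 UMIs in roX-present and no-roX cells, a log2 ratio of -0.53, and 16 and 157 UMIs in esg cells, a log2 ratio of -0.66 with an interval that includes 0. Its partner *tra2* stood at 0.37 (-0.07 to 0.78) and 0.26 (-0.49 to 0.94). The 2 transcription factors at the end of the pathway, *dsx* (*doublesex*) and *fru* (*fruitless*), were above 0 over all cells, at 0.80 (0.41 to 1.17) and 0.70 (0.61 to 0.80). Within esg cells *dsx* came to -0.05 (-0.60 to 0.46) and *fru* to 0.17 (0.05 to 0.28). *emc*, which encodes an inhibitor of basic helix-loop-helix factors, likewise had 0.96 (0.83 to 1.09) over all cells and -0.12 (-0.40 to 0.14) in esg cells. The other members read, *da*, *gro*, *dpn*, *her*, *ix*, *vir*, *Hakai*, *nito* and *fl(2)d*, lay between -0.62 and 0.45 over all cells and between -0.64 and 0.15 in esg cells.

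*msl-2* stood out among the genes of dosage compensation. This gene (chr2L:3462218-3466112) encodes the subunit of the MSL complex that only males make. It had 41 UMIs in roX-present cells and 63 in the far larger set of no-roX cells, which gave 17.0 CPM against 3.36 CPM. The log2 ratio was 2.34 (1.73 to 2.93), or 5.06-fold higher. In esg cells there were 21 UMIs with roX and 25 without, a log2 ratio of 2.38 (1.48 to 3.28), on fewer UMIs than the 100 asked for in the counts. UMIs of *msl-2* were found in 35 of 104 roX-present cells and 57 of 782 no-roX cells, with at most 4.88% of the roX-present UMIs from 1 cell. It was above 0 in each of the 7 clusters that held at least 5 cells of both sets. The log2 ratio was 2.39 (1.34 to 3.41) in progenitor-like, 2.78 (0.97 to 4.49) in enteroendocrine-like and 2.44 (0.08 to 5.13) in visceral muscle-like cells. In the others the interval included 0, on 2 to 5 roX-present UMIs each. These stood at 1.99 (-0.59 to 4.12) in enterocyte-like cells, 2.28 (-1.12 to 4.89) in cluster 4, 0.76 (-2.49 to 3.03) in cluster 5 and 1.42 (-0.94 to 4.11) in cluster 6. Barcodes with at most 1000 UMIs held 3 *msl-2* UMIs, or 5.66 CPM (1.17 to 16.6).

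Most other subunits were closer to equal. *msl-1*, the scaffold of the complex, had 43 and 234 UMIs in roX-present and no-roX cells, a log2 ratio of 0.51 (0.01 to 0.99), and 0.66 (0.07 to 1.21) in esg cells. *msl-3*, the subunit that reads a histone mark on active genes, had 20 and 101 UMIs and a ratio of 0.62 (-0.15 to 1.32). The acetyltransferase gene *mof* had only 7 and 61 UMIs, at -0.17 (-1.54 to 0.96). *mle*, the helicase that remodels roX RNA, was past 2-fold lower over all cells, at -1.30 (-1.80 to -0.85), but stood at 0.23 (-0.38 to 0.80) in esg cells. In 1 unnamed cluster (cluster 4) *mle* had 2 UMIs in roX-present cells and 510 of its 787 no-roX UMIs. *Clamp*, the zinc finger protein that guides the complex to the X, had 0.42 (0.11 to 0.71) over all cells and 0.37 (-0.04 to 0.75) in esg cells. The kinase gene *JIL-1* had 0.36 (0.11 to 0.61) and 0.15 (-0.17 to 0.46). *Unr*, *Rm62*, *Top2*, *Su(var)3-7*, *Nup153* and *Mtor* lay between -0.12 and 0.31 over all cells and between -0.44 and 0.26 in esg cells. Of 12 genes of this list read over all cells, 1 (*msl-2*) was past 2-fold higher and 1 (*mle*) past 2-fold lower, beside 6.55% and 6.31% of all genes, so the counts alone do not set the list apart. Of 9 read in esg cells, 0 were past 2-fold in either direction.

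**Figure D3:**
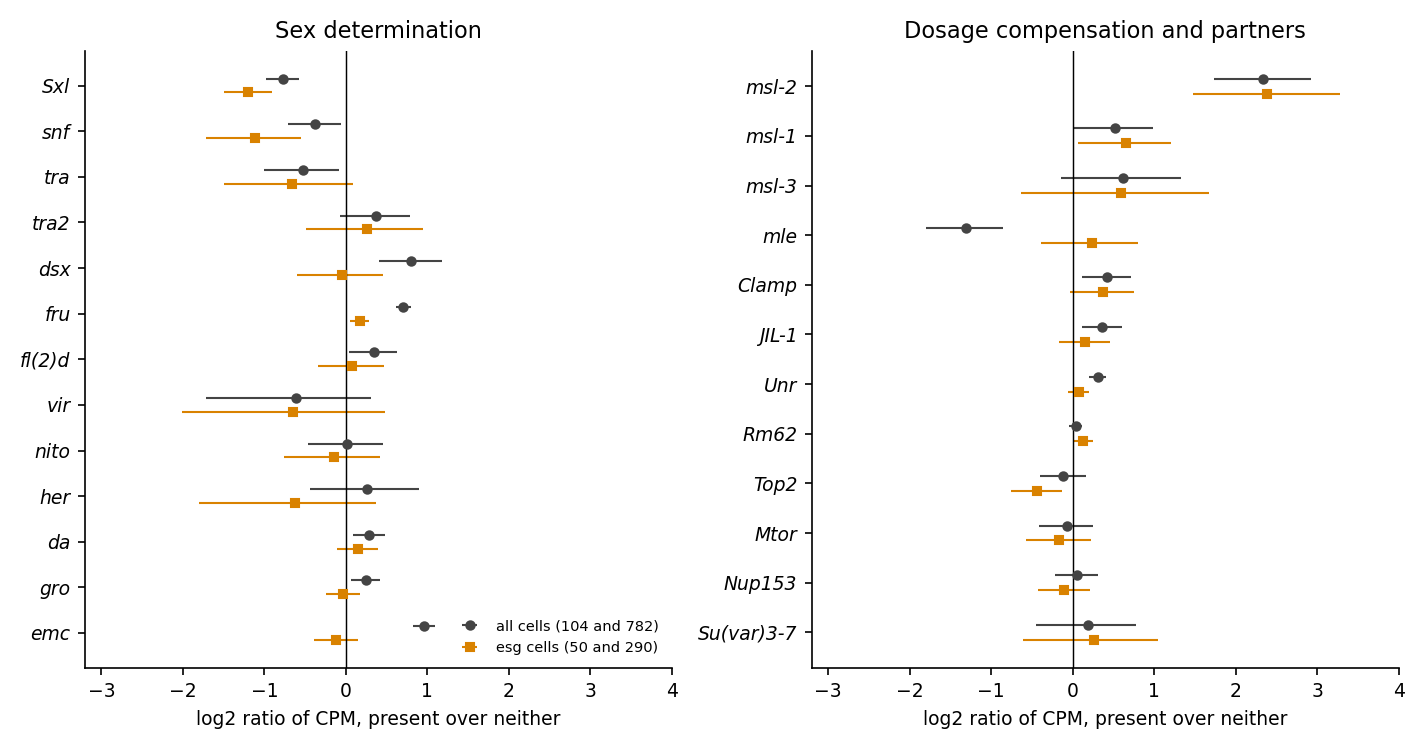
Log2 ratio of CPM in roX-present over no-roX cells (x axis) for genes of sex determination (left) and of dosage compensation with partners (right), over all cells (circles, 104 and 782 cells) and in esg cells (squares, 50 and 290 cells). Lines are exact 95% intervals for counting error: Sxl lies below 0 in both (-0.78 and -1.20) and msl-2 above 0 in both (2.34 and 2.38).

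Other RNAs of one sex were scarce. The files list 113 Y-linked genes, and 0 of them had a UMI in either set, which allows up to 1.24 CPM in roX-present cells and 0.160 CPM in no-roX cells. The yolk protein genes *Yp1*, *Yp2* and *Yp3*, which the female fat body and ovary make, together had 5 UMIs in roX-present and 92 in no-roX cells, or 2.07 and 4.91 CPM, a log2 ratio of -1.24 (-2.90 to 0.03). The 17 genes of the male germline and accessory gland had 18 and 42 UMIs, or 7.46 and 2.24 CPM, with 9 of them at 0 in both sets. Their log2 ratio was 1.74 (0.85 to 2.56). The 10 genes of the female germline had 35 and 130 UMIs, or 14.5 and 6.94 CPM, a log2 ratio of 1.06 (0.48 to 1.61). The sums of both germline lists were thus higher in roX-present cells, but rested on few UMIs, and 0 genes of these 3 lists reached 100 UMIs.

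X-linked genes lay slightly below the genes of chromosomes 2 and 3 in roX-present cells. Over all cells the median log2 ratio was -0.04 for 1167 X-linked genes and 0.08 for 5388 genes of chromosomes 2 and 3, a difference of -0.12. In esg cells it was -0.20 for 705 and -0.0050 for 3144 genes, a difference of -0.19. There, 68.7% of X-linked genes were below 0, against 50.6% of genes of chromosomes 2 and 3. Quartiles were -0.42 and 0.06 for the X and -0.28 and 0.24 for chromosomes 2 and 3, so the 2 sets of genes overlapped widely. The shift was not one of a few strong genes: 18 of the 705 X-linked genes (2.55%) were past 2-fold higher and 31 (4.40%) past 2-fold lower, beside 2.80% and 3.09% on chromosomes 2 and 3. It was present at each level of abundance in esg cells. The X-linked medians were -0.21, -0.19 and -0.16 for genes with 100 to under 500, 500 to under 2000 and 2000 or more UMIs, against -0.02, 0.02 and 0.0015 on chromosomes 2 and 3.

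Each of the 4 large autosome arms had a median near 0 in esg cells, from -0.02 on 2R to 0.02 on 3L. The small chromosome 4 went the other way, at 0.10 over 48 genes in esg cells and 0.39 over 64 genes in all cells. Genes of cytoplasmic ribosomal proteins, a set chosen after values were seen, also went the other way on the X: the median was 0.09 for the 14 X-linked genes and 0.0032 for the 67 genes of chromosomes 2 and 3 in esg cells. By cluster, with a minimum of 50 UMIs, the difference between the X and chromosomes 2 and 3 was -0.14 in progenitor-like, -0.16 in enteroendocrine-like, -0.10 in enterocyte-like and 0.01 in visceral muscle-like cells. It ran from -0.21 to -0.06 in the other 5 clusters.

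The share of UMIs from X-linked genes gave a second reading, with roX left out. In esg cells it was 16.8% (16.7 to 16.9) with roX and 18.6% (18.6 to 18.7) without. Per cell, as a share of nuclear UMIs, the lowest, median and highest values were 14.8%, 18.5% and 22.8% in the 50 roX-present esg cells and 10.9%, 20.3% and 24.8% in the 290 no-roX esg cells, so the ranges overlapped. Over all cells the summed share ran the other way, at 17.7% (17.7 to 17.8) in roX-present and 15.99% (15.97 to 16.003) in no-roX cells, while the medians per cell of the X-linked share of nuclear UMIs were 18.5% and 18.5%. The part of cell types, which differed between the sets, in this summed share was not tested.

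**Figure D4:**
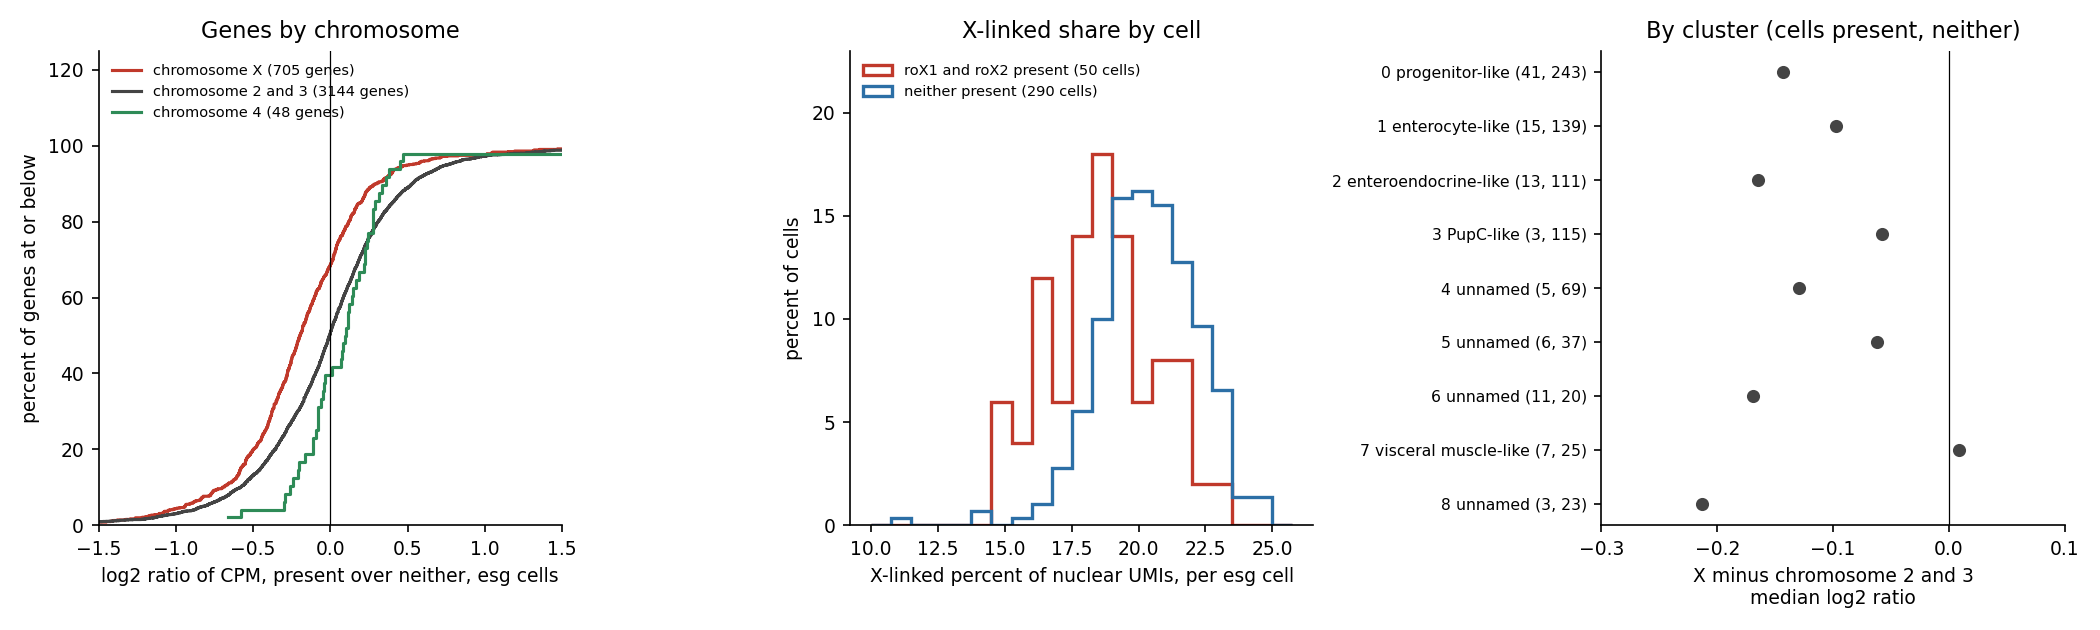
Left, percent of genes (y axis) at or below each log2 ratio of roX-present over no-roX esg cells (x axis, shown from -1.5 to 1.5) for chromosome X, chromosomes 2 and 3, and chromosome 4; 68.7% of X-linked genes and 50.6% of chromosome 2 and 3 genes lie below 0. Middle, percent of esg cells (y axis) by the X-linked percent of nuclear UMIs (x axis), and right, the X median minus the chromosome 2 and 3 median (x axis) by cluster, from -0.21 to 0.01, with the number of roX-present and no-roX cells.

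The cell types of the sets were compared through 9 clusters, found without *roX1* and *roX2* among the genes used. Cluster names rest on fixed markers and are rebuilt here. Progenitor-like cells, led by *klu*, *esg* and *E(spl)m3-HLH*, made up 39.4% (29.98 to 49.5) of roX-present and 31.1% (27.8 to 34.4) of no-roX cells. Enterocyte-like cells were 14.4% (8.30 to 22.7) and 17.8% (15.2 to 20.6), and enteroendocrine-like cells 12.5% (6.83 to 20.4) and 14.2% (11.8 to 16.8). Their intervals overlapped. A pair of clusters differed more. Cells like the pupal cells of the study (PupC-like, with *Galt*, *CG5399* and *MtnB* among the leading genes) were 2.88% (0.599 to 8.20) of roX-present and 14.7% (12.3 to 17.4) of no-roX cells. An unnamed cluster led by cuticle genes such as *Cpr49Ae*, *Osi20* and *Gasp* (cluster 6) was 10.6% (5.40 to 18.1) and 2.56% (1.57 to 3.92). The other shares were 4.81% and 8.82%, 5.77% and 4.73%, and 2.88% and 2.94% for 3 unnamed clusters and 6.73% and 3.20% for visceral muscle-like cells.

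**Figure D5:**
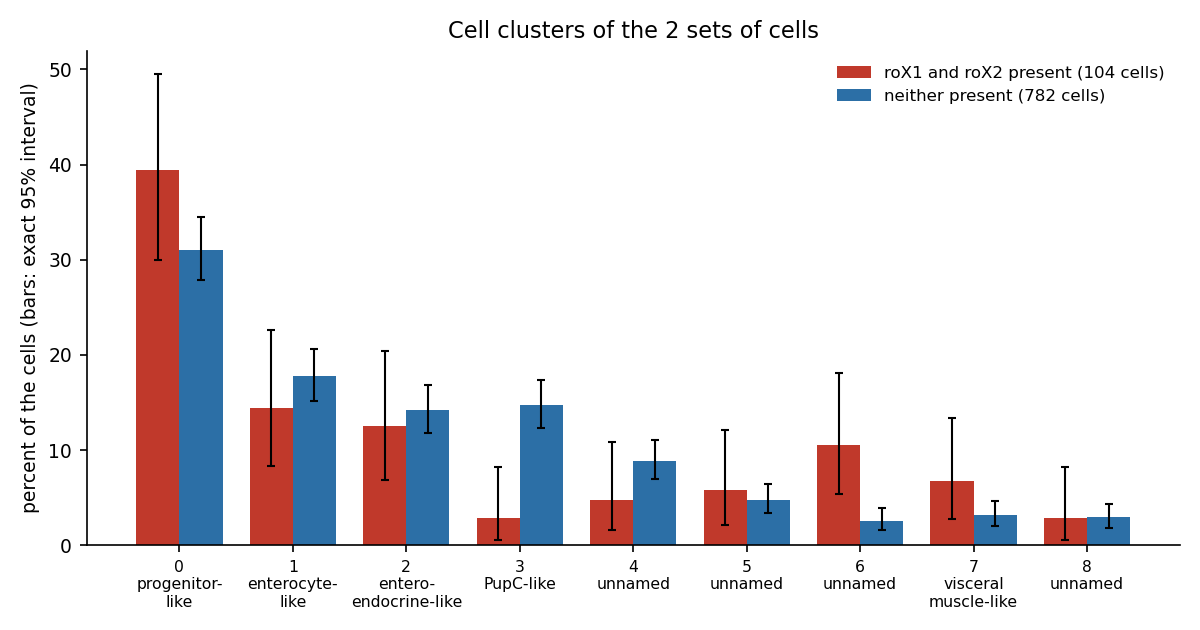
Percent of cells (y axis) in each of 9 clusters (x axis) among the 104 roX-present cells and the 782 no-roX cells, with exact 95% intervals. The PupC-like cluster held 2.88% and 14.7% and cluster 6 held 10.6% and 2.56%.

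Summed marker lists of these cell types also differed. Over all cells the 16 PupC genes summed to 22579 CPM in roX-present and 58842.5 CPM in no-roX cells, and 9 of 12 read were past 2-fold lower and 1 (*htl*) past 2-fold higher, beside 6.31% and 6.55% of all genes. The study described these pupal cells from the same libraries, so this is not independent evidence of a direction. The 20 enterocyte genes, with digestive enzymes such as the trypsin gene *kappaTry* among them, summed to 22486 CPM in roX-present and 46593 CPM in no-roX cells, a log2 ratio of -1.05 (-1.06 to -1.04), and 6 of 14 read were past 2-fold lower and 1 (*alphaTry*) past 2-fold higher, beside the same shares of all genes. The 13 visceral muscle genes summed to 9409.6 and 5242 CPM, with 7 of 13 past 2-fold higher, beside 6.55%. The 6 haemocyte genes summed to 127 and 3044 UMIs, or 52.7 and 162 CPM, of which *Sr-CI*, a scavenger receptor gene, gave 100 and 2866 UMIs. *Sr-CI* is also a leading gene of cluster 4. The other haemocyte markers were low, with 0 and 28 UMIs of *Hml*, 0 and 7 of *NimC1*, 17 and 79 of *srp* and 10 and 64 of *Pxn*, and *He* had 0 in both sets. The 7 fat body genes had 8.71 and 10.8 CPM and the 2 tracheal genes 6.63 and 8.91 CPM. In such sums, fewer cells of a type and less RNA per cell cannot be told apart.

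Several of the genes with the largest ratios over all cells rested on a few cells. *Lcp65Ag2*, a larval cuticle protein gene, had 593 UMIs in 3 roX-present cells and 1 UMI in no-roX cells. *CG15212* had 1186 UMIs in 4 roX-present cells and 0 in no-roX cells, at least 3071-fold higher (with 3 UMIs set for the sum at 0). *Cpr49Ae* had 7639 and 50 UMIs, a log2 ratio of 10.21 (9.81 to 10.64), with the roX-present UMIs in 6 cells. The odorant-binding protein gene *Obp83g* had 522 and 2 UMIs, and the chitin deacetylase gene *Cda4* 246 and 4. On the other side, *Osi20* and *Osi19*, of a family of cuticle-associated membrane proteins, had 0 UMIs in roX-present cells and 4268 and 1998 in no-roX cells. These are at least 183-fold and 85.7-fold lower. *Osi18* had 1 and 2392 UMIs in 8 no-roX cells, *Twdlbeta* 1 and 2226, *Cpr64Ad* 3 and 3350 and *Cpr66Cb* 0 and 1101. A single no-roX cell held 95.6% of the *Cpr66Cb* UMIs, and a single one held 82.0% of the no-roX UMIs of *Cpr64Ad*. Without cluster 6 the log2 ratio of *Cpr49Ae* was -2.50.

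In esg cells the highest ratios, apart from CR45847, rested largely on 1 cell. *CG5804* had 1467 UMIs with roX and 372 without, a log2 ratio of 4.62 (4.45 to 4.78), but 91.6% of the roX-present UMIs came from a single cell. The same kind of figure was 95.2% for *CG10472* and 92.2% and 95.7% for the trypsin genes *Try29F* and *lambdaTry*. The cell belonged to cluster 8, which is led by digestive enzyme genes such as *Mal-A3*, and had 47566 UMIs with 3 of *esg*, 97 of *roX1* and 28 of *roX2*. Whether it was 1 cell or 2 was not tested. Without it the log2 ratios were 1.13 for *CG5804*, 0.75 for *CG10472*, 1.14 for *Try29F* and 0.88 for *lambdaTry*.

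At the low end of esg cells stood *MtnB*, of the PupC list, with *Cht4*, *Drsl5* and *Obp99c* among others, and here too single cells weighed heavily. This metallothionein gene, whose protein binds copper and other metals, had 253 UMIs in roX-present and 12373 in no-roX esg cells, a log2 ratio of -2.98 (-3.16 to -2.80). A single no-roX cell, of the PupC-like cluster, held 9019 of the 12373 UMIs (72.9%). Without it *MtnB* stood at 319 CPM in roX-present and 686 CPM in no-roX esg cells, a log2 ratio of -1.10 (-1.29 to -0.92). The antimicrobial peptide gene *Drsl5* had 6 and 311 UMIs, of which the same no-roX cell held 82.3%, and without it the log2 ratio was -0.57 with an interval that includes 0. The chitinase gene *Cht4* had 2 and 281 UMIs, with 60.9% of the no-roX UMIs in another cell and a log2 ratio of -3.15 (-6.21 to -1.26) without that one. The odorant-binding protein gene *Obp99c* had 5 and 260 UMIs, with 27.3% in 1 no-roX cell, and -2.62 (-4.26 to -1.37) without it. These cells were left out after seeing the data. The list of 16 PupC genes as a whole summed to 1763 CPM in roX-present and 4607 CPM in no-roX esg cells, a log2 ratio of -1.39 (-1.46 to -1.31), with 4 of 10 read past 2-fold lower, beside 3.31% of all genes. Without the 1 cell rich in *MtnB* the sums were 1763 and 2325 CPM, a log2 ratio of -0.40 (-0.48 to -0.32), with 3 of 10 past 2-fold lower. Within the progenitor-like cluster *MtnB* stood at 0.58, and at 0.31 in the ratio weighted by cluster described below. Enterocyte markers in esg cells went the other way, with 4481 CPM with roX and 842 CPM without, and 8 of 10 genes read past 2-fold higher, beside 2.75% of all genes. Without the 1 cell rich in *CG5804*, itself a gene of the list, the sum was 2578 CPM with roX and 842 CPM without, with 7 of 9 past 2-fold higher. Enteroendocrine markers summed to 3774 CPM with roX and 1628 CPM without, with 5 of 11 past 2-fold higher, beside 2.75%. Of their 2993 roX-present UMIs *NPF* gave 712, found in 5 cells with 289 in 1 of them, and without that cell the sums were 2746 and 1628 CPM, with 2 of 11 past 2-fold higher. Their part in the other ratios of esg cells was not tested. The progenitor markers themselves lay closer together in esg cells, at 10974 and 10300.5 CPM, with 0 of 19 past 2-fold. The cell cycle list of 11 genes, among them *CycB*, *PCNA* and *stg*, summed to 1517 and 2080.2 CPM in esg cells, a log2 ratio of -0.46 (-0.54 to -0.37), and 3 of 11 were past 2-fold lower, beside 3.31%.

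The 10 X-linked genes with the largest ratios in esg cells included 6 above 0 and 4 below. Of those above 0, *CG9673* and *CG4653* had log2 ratios of 3.97 and 3.64, with 82.0% and 82.9% of their roX-present UMIs from 1 cell. Without that cell they stood at 1.59 and 1.18, *Ag5r2* at 0.65 in place of 2.44 and *CG13360* at 1.23 in place of 2.87. Of those below 0, *CG2543* had 3 and 257 UMIs, with 42.4% of the no-roX UMIs in 1 cell and a log2 ratio of -3.0004 (-5.29 to -1.43) without it. *CG9691* had 3 and 219 UMIs, with 79.5% in 1 no-roX cell, and without it the log2 ratio was -1.28 (-3.61 to 0.36). *CG17982*, with 4 and 121 UMIs, had at most 4.13% of the no-roX UMIs in 1 cell and a log2 ratio of -2.28 (-4.18 to -0.89). *CG17982* also stood at -1.13 (-1.73 to -0.58) over all cells, but at -0.50 in the ratio weighted by cluster described below. *CG17600*, with 4 and 101 UMIs, had a log2 ratio of -2.02 (-3.93 to -0.62) in esg cells. Over all cells it went the other way, at 1.12 (0.72 to 1.51).

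To lessen the part of cell types, each gene was compared within the 7 clusters that held 5 or more cells of both sets. No-roX cells were weighted to the UMIs of roX-present cells in each cluster. Cells within a cluster may still differ in type, so the weighted ratio does not set cell types aside. The cuticle genes *Cpr49Ae* and *Cpr64Ad* kept weighted log2 ratios of 9.47 and -10.02. Of 3957 genes read in all cells and in esg cells, 9 were past 2-fold higher in all cells, in esg cells and in this weighted ratio, and 16 were past 2-fold lower in all 3. Both precursor rRNA copies were among them, 1 in each direction. X-linked genes were 0 of the 9 and 3 of the 16, beside 705 of the 3957 genes. The 3 ratios share cells, so they are not independent readings.

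Of the 9, a gene spread over many cells was *Axn* (*Axin*), the scaffold that brings about breakdown of the Wnt effector Armadillo. *Axn* had 80 UMIs in 51 roX-present cells and 270 UMIs in 193 no-roX cells, a log2 ratio of 1.20 (0.82 to 1.57), and 1.02 (0.53 to 1.496) in esg cells. Its direction was the same in 7 of 7 clusters. The lowest *Axn* value under other settings was 0.73 over all cells and 0.72 in esg cells, which is not past 2-fold. *h* (*hairy*), a transcriptional repressor, had 271 and 691 UMIs, a log2 ratio of 1.61 (1.40 to 1.81), and the same direction in 5 of 7 clusters. *NPF*, the gut peptide hormone neuropeptide F, had 718 and 1339 UMIs, a log2 ratio of 2.06 (1.93 to 2.19), but the roX-present UMIs lay in 7 cells, with 40.3% in 1 of them. *Swim* (2.06), *CG17716* (1.36) and *CG18446* (2.22) likewise had 33.3% to 34.7% of their roX-present UMIs in 1 cell. *CG42365* had 1.17 (0.99 to 1.35), but the same direction in only 4 of 7 clusters, and its lowest value under other settings was 0.05. *sr* (*stripe*), a transcription factor of tendon cells, had 2.06 over all cells but -1.05 in the progenitor-like cluster.

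The 16 lower genes were mostly of low count. For others, 1 no-roX cell each weighed heavily in esg cells. It held 88.6% of the no-roX esg UMIs of *CG16995*, 77.8% for *CG32444*, 71.2% for *CG31313* and 51.1% for *CG14989*. Without that cell *CG16995* stood at -1.54 (-6.92 to 1.13) in esg cells. The X-linked *Chrac-16*, a subunit of a chromatin remodeler, had 17 and 284 UMIs, a log2 ratio of -1.10 (-1.90 to -0.40), and -1.74 (-3.22 to -0.58) in esg cells. The X-linked *Hexo2*, a hexosaminidase gene, had 20 and 400 UMIs, a log2 ratio of -1.36 (-2.09 to -0.72). A single no-roX cell held 152 of these 400 UMIs (38%). In esg cells *Hexo2* stood at -1.14 (-2.12 to -0.29), and in the progenitor-like cluster at -0.97 (-2.06 to -0.04). The X-linked *CG11590* had -1.08 (-1.72 to -0.50). The glutathione transferase gene *GstD2* had 38 and 938 UMIs, a log2 ratio of -1.67 (-2.18 to -1.20). *MFS3*, *MEP-1* (-1.16), *Mfap1* (-1.06) and *CG12288* (-1.29) had between 9 and 12 UMIs in roX-present cells. The direction was shared by only some of the clusters with at least 5 UMIs of the gene. It was so in 6 of 7 for *CG11590*, 5 of 7 for *Chrac-16* and 3 of 4 for *GstD2* and *Hexo2*. For *CG12288* it was 3 of 6, for *MFS3* 2 of 4 and for *MEP-1* 2 of 2.

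A count of genes with the same direction in every cluster gives the background for *Axn* and *msl-2*. Of 2927 genes with at least 5 UMIs in each of the 7 clusters, 49 (1.67%) were above 0 in all 7 and 46 (1.57%) below 0 in all 7. Of these, 4 were also past 2-fold higher in the weighted ratio, namely CR45847, *msl-2*, *Axn* and *wun*, and 2 were past 2-fold lower, CR45845 and *CSN6*. *wun* (*wunen*), a lipid phosphatase gene, had 270 and 958 UMIs, and *CSN6*, a subunit of the COP9 signalosome, had 29 and 361. Both were named after their values were seen. Of 560 X-linked genes so covered, 5 (0.893%) were above and 16 (2.86%) below 0 in all 7, beside 43 (1.89%) and 27 (1.18%) of 2280 genes of chromosomes 2 and 3. *Sxl* was among the 16. By its weighted log2 ratio it stood at -0.88. Outside the 7 clusters *Sxl* stood at -1.81 (-4.10 to -0.26) in the PupC-like cluster and 0.98 (-0.60 to 2.29) in cluster 8. Each of these held 3 roX-present cells.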

How the data were processed

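The early pupa and adult intestines were sequenced as 1 10x Genomics 3′ library per stage. The authors aligned reads with Cell Ranger 3.0.2 to the *Drosophila* genome, and the deposited matrices hold UMI counts per gene and barcode, with no normalization. Barcodes were kept with under 25% mitochondrial UMIs, more than 200 and fewer than 4000 genes, and more than 10000 and fewer than 100000 UMIs. Counts were summed over cells and scaled to CPM. Intervals are exact 95% intervals (Poisson, Clopper-Pearson, or conditional on the sum of both counts) and cover counting error only. A sum of 0 was set to 3 UMIs. No doublet caller was run, and leaving out the 5% deepest cells was an alternative. Clusters came from Leiden clustering at 14 components and a resolution of 0.5 (Python 3.11.15, scanpy 1.11.5). Chromosomes were read from the BDGP6 annotation, in which 17599 of 17738 identifiers were found. The ratio was tested on simulated counts.

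Named genes were *roX1*, *roX2*, members of 2 lists (sex determination, dosage compensation) with 100 UMIs, Y-linked genes with a UMI, the 10 highest and 10 lowest genes in all cells and in esg cells, the 10 X-linked genes with the largest absolute ratio in esg cells, and genes past 2-fold in all 3 ratios, or 96 genes in all, of which the text describes some. The rule, lists and members were chosen with earlier results of these data known. With 1 library, no test was run. Other settings were tried in 23 ways, 6 of them chosen after seeing the data.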

Additional observations from a re-analysis of the deposited data

Results flagged for a closer look

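The roX RNAs also appeared in the adult libraries, which enter no comparison here except where named, and no other value stood out by the rules applied. In the immature adult, 12 of 713 cells with more than 10000 UMIs had a UMI of *roX1* or *roX2*, 3 of them of both. Immature adult barcodes with at most 1000 UMIs had 0 UMIs of either RNA. In the mature adult, 21 of 1125 cells had a UMI of 1 of the RNAs and 0 had both, and the barcodes with at most 1000 UMIs held 2 UMIs of *roX1*. All of these libraries are labelled female. Where these UMIs came from was not tested.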

How the results depend on the processing

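17 other settings were run, and 6 more that were chosen after seeing the data. The 6 were at least 5 roX UMIs together, without cluster 6, the progenitor-like cluster (cluster 0) alone, without barcodes found in another library, without the 1 roX-present esg cell rich in *CG5804*, and without the 1 no-roX esg cell rich in *MtnB*. The X median minus the chromosome 2 and 3 median stayed below 0 in all of those that gave a value (-0.17 to -0.05 over all cells, -0.20 to -0.12 in esg cells). The share of roX-present cells, 10.8%, was 7.20% with more than 1000 UMIs per cell, 18.96% with a UMI of either RNA and 17.1% by *roX1* alone. Genes past 2-fold over all cells, 862 as reported, numbered 541 by either RNA, 526 by *roX1* alone, 526 in the cluster-weighted ratio and 124 in cluster 0. With at least 20, at least 500 or no minimum of UMIs per gene they numbered 1489, 357 and 2538. In esg cells, 240 as reported, they numbered 136 with cells thinned to 10000 UMIs, 136 by either RNA, 128 in cluster 0, and 960, 30 and 2079 under the 3 gene minimums. The X-linked share of UMIs in esg cells differed by -1.83 points, and by -2.55 over 20000 UMIs, -1.56 thinned, -1.40 by either RNA, -1.58 by *roX1* alone, -1.48 by *roX2* alone, -1.13 with 1 *esg* UMI, -1.58 in cluster 0 and -1.63 without the cell rich in *CG5804*. The share with *esg* was 18.2% of roX-present cells over 20000 UMIs, and among no-roX cells 19.8% over 1000 UMIs, 20.8% over 20000 UMIs and 30.8% with 5 *esg* UMIs.

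Signs turned, by log2 ratio over all cells, in cluster 0 alone for *Ag5r2* (0.73), *CG2543* (0.43), *CG9691* (0.12), *Drsl5* (1.28), *MtnB* (0.58), *mle* (0.28) and *sr* (-1.05), without cluster 6 for *Cpr49Ae* (-2.50) and *Cpr64Ad* (0.14), in the cluster-weighted ratio for *MtnB* (0.31), and over 20000 UMIs for *CG17716* (-1.19) and *Swim* (-0.19). In esg cells they turned when thinned for *Ag5r2* (-1.99), *CG10472* (-0.33) and *CG5804* (-0.31), with 1 *esg* UMI for *Ag5r2* (-0.27), *CG13360* (-0.63), *CG4653* (-0.24) and *CG9673* (-0.45), with 5 *esg* UMIs for *lambdaTry* (-0.28), and in cluster 0 for *CG9691* (0.17) and *sr* (-0.95). These lists hold only ratios that were past 2-fold as reported. Smaller ratios of named genes turned too, such as *msl-3* in esg cells (lowest -1.59) and *emc* over all cells (lowest -0.21). The cause was not tested. No paired analysis was possible because both sets of cells came from the same 1 library. Depth limits *msl-2* and *mof*, which rest on few UMIs, and the Y-linked genes, for which 0 UMIs only set an upper limit.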
